A study of Mus musculus with 3 samples.

Results

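The insulin-like growth factor (IGF) genes described here are 10 of the 29267 genes in the count tables of the series. They are the ligand gene Igf1, the receptor gene Igf1r, the binding protein genes Igfbp2, Igfbp3, Igfbp4, Igfbp5, Igfbp6 and Igfbp7, and the mRNA binder genes Igf2bp1 and Igf2bp3. They were taken by name, through the Ensembl identifiers of the tables. RNA-seq libraries of 3 cultures, for which no treatment is named, were compared, with 1 library each. The MEF samples are mouse embryonic fibroblasts of the OG2 strain, from mid-gestation embryos that carried an Oct4-GFP reporter of pluripotency, and of ICR mice, taken at passages 3 to 5. The age of the ICR embryos is not given in the sources used here. The ESC sample is the R1 embryonic stem cell line at passage 30, labelled naive. MEFs are the cells from which reprogramming starts and ESCs its reference end point, so the comparison asks how far the IGF system differs between the outset and the goal. The strains were treated as 2 MEF samples of 1 group, and nothing in the sources says whether embryos were pooled.

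IGF1 and IGF2 are secreted growth factors that bind the receptor tyrosine kinase IGF1R, which acts through IRS adaptors on the PI3K, AKT and mTOR kinases. IGF-binding proteins (IGFBPs) hold the ligands outside the cell, lengthen their life and limit their access to the receptor, and proteases such as PAPPA release them. The IGF2BP proteins are not related to the IGFBPs. They are RNA-binding proteins of embryonic tissue, named after the Igf2 mRNA, which govern the localization, stability and translation of their target mRNAs. Fibroblasts of the embryo are known for a strong output of IGF2 and IGFBPs.

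The expected counts summed to between 4590619 and 5149312 in the MEF samples and to 1717838 in the ESC library, where 3 counts correspond to 2.15 CPM (read counts scaled to the library size after TMM adjustment). The ESC library went against its label in part. Of 14 markers of pluripotent cells 7 had a count, among them Pou5f1, Nanog and Sox2, while Zfp42, Esrrb, Utf1, Dppa4, Dppa5a, Fbxo15 and Lin28a were at 0. It is therefore called the library labelled R1 ESC below. The summed level of these markers was 133 CPM there, against 0.887 and 0.967 CPM in OG2 and ICR MEFs. All 12 fibroblast markers were present in it, at between 1.91% and 49.0% of the MEF level, and their summed level was 1596 CPM against 20746 and 21499 CPM in OG2 and ICR MEFs. Of 7 epithelial markers Krt14, Krt8, Krt18 and Krt19 had a count there and Krt5, Trp63 and Cldn4 were at 0. They summed to 519 CPM there and to 29.8 and 32.3 CPM in OG2 and ICR MEFs. The part of these cell types in the results below was not tested, and fewer cells of a type cannot be told apart from less RNA per cell.

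The promoters of 9 of the 10 genes were found in RefSeq on GRCm38.p6, and those of Igfbp7, Igfbp5, Igf1r and Igfbp4 are shown because the first 3 genes had the largest falls described below and Igfbp4 was the only one that rose. Each run covers the 250 bases before the RefSeq start on the strand of the gene. Capitals mark the GC box GGGCGG or the TATA box TATAAA on either strand. A GC box and a TATA box cannot overlap each other.
Igfbp7 (chr5:77408046-77408295, minus strand): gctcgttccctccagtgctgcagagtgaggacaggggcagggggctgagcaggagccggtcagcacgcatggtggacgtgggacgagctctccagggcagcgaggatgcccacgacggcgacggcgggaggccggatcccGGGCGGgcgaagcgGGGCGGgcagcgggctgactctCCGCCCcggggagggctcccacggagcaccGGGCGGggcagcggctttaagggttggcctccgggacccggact
Igfbp5 (chr1:72874866-72875115, minus strand): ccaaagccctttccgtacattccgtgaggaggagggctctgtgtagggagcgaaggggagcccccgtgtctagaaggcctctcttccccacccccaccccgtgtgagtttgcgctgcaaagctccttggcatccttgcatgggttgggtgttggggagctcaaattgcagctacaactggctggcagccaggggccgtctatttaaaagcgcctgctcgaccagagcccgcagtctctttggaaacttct
Igf1r (chr7:67952007-67952256, plus strand): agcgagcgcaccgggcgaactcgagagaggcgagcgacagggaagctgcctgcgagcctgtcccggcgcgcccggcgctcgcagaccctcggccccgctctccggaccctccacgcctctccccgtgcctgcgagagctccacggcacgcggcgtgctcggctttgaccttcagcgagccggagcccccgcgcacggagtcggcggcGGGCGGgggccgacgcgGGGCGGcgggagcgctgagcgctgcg
Igfbp4 (chr11:99040994-99041243, plus strand): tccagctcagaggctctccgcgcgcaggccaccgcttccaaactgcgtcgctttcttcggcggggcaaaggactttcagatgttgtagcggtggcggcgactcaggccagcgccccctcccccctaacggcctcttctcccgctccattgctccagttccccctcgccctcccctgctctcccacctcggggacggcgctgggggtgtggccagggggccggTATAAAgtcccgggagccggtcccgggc
The Igfbp7 promoter held 4 GC boxes, at 110, 96, 74 and 44 bases before the start, the Igf1r promoter held 2 at 43 and 26 bases, and the Igfbp4 promoter held a TATA box 28 bases before the start. Igfbp5 had neither. A GC box was present in 33% and a TATA box in 12.3% of 32526 promoter windows of the same length. The number of CpG dinucleotides was 42 for Igf1r, 26 for Igfbp7, 22 for Igfbp4 and 10 for Igfbp5, where the median of all windows was 6. Of the other genes that fell, Igf2bp3 had 21 and Igf1 had 5, and neither promoter held a GC box or a TATA box. Among genes that did not pass the test described below, Igfbp3 had 32, Igfbp2 had 14 or 11 depending on the start, and Igfbp6 had 7. Igfbp3 had neither box. Igfbp2 held 3 GC boxes before the start with 14, and Igfbp6 a TATA box on the opposite strand, 148 bases before the start. No binding or methylation was measured, so these matches are a description of the letters.

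MEFs transcribed the whole set, and the binding protein genes led it. On the TPM scale, which is corrected for transcript length, Igfbp7 was the highest with 765 TPM in OG2 MEFs and 991 TPM in ICR MEFs, and Igf1 was the lowest with 10.4 and 10.1 TPM in the same order. In OG2 MEFs the order below Igfbp7 was Igfbp5 (201 TPM), Igfbp6 (129 TPM), Igfbp3 (101 TPM), Igfbp4 (69.5 TPM), Igf1r (41.6 TPM), Igf2bp3 (35.4 TPM), Igfbp2 (34.3 TPM) and Igf2bp1 (32.9 TPM). Igf2bp3 did not differ from Igfbp2, nor Igfbp2 from Igf2bp1, beyond counting error. In ICR MEFs Igfbp3 (233 TPM) stood above Igfbp5 (129 TPM), followed by Igfbp4 (88.7 TPM), Igfbp6 (85.4 TPM) and Igfbp2 (71.5 TPM). There, Igfbp4 did not differ from Igfbp6, Igfbp6 from Igfbp2, nor Igf1r (39.2 TPM) from Igf2bp3 (36.0 TPM), while Igf2bp1 (29.8 TPM) was lower than Igf2bp3.

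**Figure D1:**
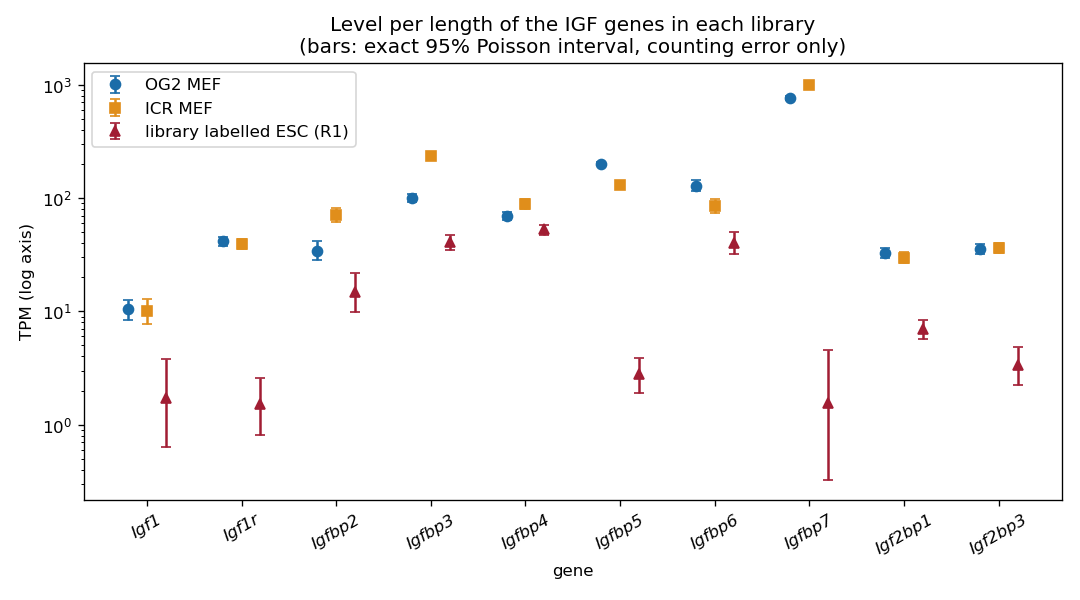
TPM (log axis) of each of the 10 genes (horizontal axis) in OG2 MEFs, ICR MEFs and the library labelled R1 ESC, 1 library each, with bars for the exact 95% Poisson interval, which covers counting error only. Igfbp7 is the highest gene in both MEF samples, at 765 and 991 TPM, and stands at 1.56 TPM in the library labelled R1 ESC.

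The library labelled R1 ESC had another order. Igfbp4 was the highest with 52.8 TPM, followed by Igfbp3 (40.6 TPM) and Igfbp6 (40.4 TPM), which did not differ from each other beyond counting error. Igfbp2 (14.9 TPM), Igf2bp1 (6.97 TPM) and Igf2bp3 (3.33 TPM) came next, each lower than the gene before it. From Igf2bp3 down, Igfbp5 (2.77 TPM), Igf1 (1.73 TPM), Igfbp7 (1.56 TPM) and Igf1r (1.52 TPM) did not differ from their neighbours in the order, which rest on 3 to 32 counts. All 10 genes were lower there than in both MEF samples on the TPM scale. The share of all genes that were lower in this way was not computed. With TPM, 9 of the 10 were at least 1 log2 unit lower, as were 7691 of the 17810 genes with a count. The TPM scale is set by the whole library. The median log2 difference from MEFs, over the 12726 genes that reached 10 counts in a library, was -1.54 with TPM and -0.43 with CPM. In the library labelled R1 ESC 1 gene alone took 7.40% of the TPM, against 1.58% and 1.52% for the highest gene in OG2 and ICR MEFs. Its part in this shift was not tested. The comparisons below use CPM after TMM scaling, and the directions that TPM turns are named.

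The library labelled R1 ESC was compared with both MEF samples by log2(CPM + 1), and tested by edgeR (quasi-likelihood, adjusted over all genes by Benjamini and Hochberg). The ligand, the receptor, Igfbp5, Igfbp7 and Igf2bp3 fell and Igfbp4 rose, while Igfbp2, Igfbp3, Igfbp6 and Igf2bp1 did not pass the test. All 10 genes passed the low-count filter, and 5 were called lower and 1 higher at an adjusted p under 0.05. Of the 12718 genes tested, 39.1% were called lower and 29% higher, so the share of the set that was called is near that of the background. DESeq2 called 4 of the 10 genes lower and 1 higher, beside 22% and 22.8% of the 13322 genes with an adjusted p. The same 5 genes that edgeR called lower were at least 1 log2 unit below both MEF samples, where 25.9% of the 17810 genes with a count were. Igfbp4 was at least 1 log2 unit above both, where 21.9% were. The median log2 difference was -1.0 over the 10 genes and -0.41 over all genes tested. The test had 1 residual degree of freedom, so all the spread it uses comes from the MEF samples, which differ in strain. edgeR draws the spread of each gene towards that of all genes tested. A p-value therefore does not rest on the MEF pair of that gene alone. The ESC side has no spread of its own.

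**Figure D2:**
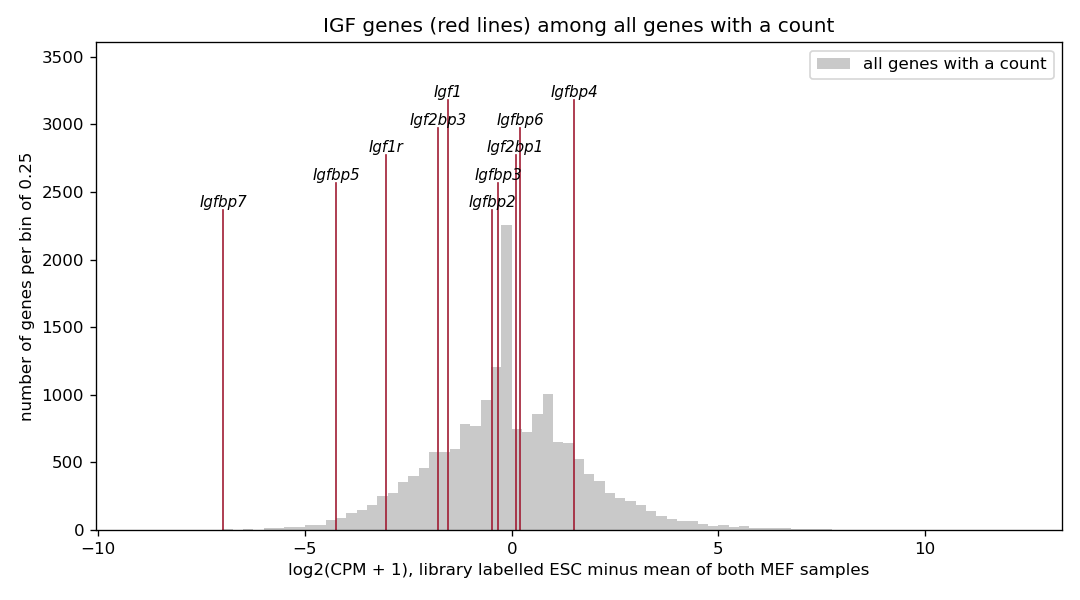
Number of genes (vertical axis) by the difference in log2(CPM + 1) between the library labelled R1 ESC and the mean of both MEF samples (horizontal axis, bins of 0.25), for the 17810 genes with a count, with a red line for each of the 10 IGF genes. The lines run from -6.98 for Igfbp7 to 1.51 for Igfbp4, and 4 of them lie within 0.5 log2 units of 0.

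Igf1 (ENSMUSG00000020053, chromosome 10 of GRCm38, 87858265 to 87937042) encodes the ligand that drives much of growth after birth. It had 95 counts in OG2 MEFs and 63 in ICR MEFs, against 6 in the library labelled R1 ESC, or 16.9, 12.2 and 4.30 CPM. Both MEF samples lay above the library labelled R1 ESC. Its log2 difference was -1.53, where the SD of the MEF samples was 0.31 (n = 2), and the adjusted p from edgeR was 0.0153. DESeq2's Wald test, at 0.225, did not call it, and the adjusted p ran from 0.00329 to 0.225 over the other tests and settings. The 6 counts put its level at 29.4% of the pooled MEF level, with an exact 95% interval from 10.6 to 65.5%.

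The Igf1 gene has several transcripts, and RSEM gives its length as their average weighted by abundance. This length was 3428 bases in OG2 MEFs and 2779 in ICR MEFs, against 1908 in the library labelled R1 ESC, so the estimated mix of transcripts was shorter where the gene was lower. The last value rests on 6 counts. The other growth factor gene, Igf2, was the main ligand gene of MEFs, with 3523 and 2574 TPM in OG2 and ICR MEFs. Igf2 exceeded Igf1 on the TPM scale 339-fold in OG2 MEFs (95% interval 277 to 419) and 256-fold in ICR MEFs (200 to 333). In the library labelled R1 ESC, Igf2 had 11 counts and the ratio was 1.83 (0.619 to 6.02), an interval that holds 1.

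Igf1r (ENSMUSG00000005533, chromosome 7, 67952827 to 68233668), the signalling receptor of both ligands, had 504, 406 and 13 counts in OG2 MEFs, ICR MEFs and the library labelled R1 ESC. These were 89.5, 78.6 and 9.32 CPM, so the MEF samples were close to each other and far above the library labelled R1 ESC. It fell by 3.04 on the log2 scale (SD of MEFs 0.13, n = 2, edgeR adjusted p = 1.68e-05), to 11.1% of the pooled MEF level (5.87 to 19%). The fall of Igf1r remained 2.61 log2 units below the median of the 12726 genes that reached 10 counts in 1 library. Igf2r, the imprinted receptor that clears IGF2, fell in the same comparison from 722 and 812 CPM in OG2 and ICR MEFs to 42.3 CPM (log2 difference -4.15, edgeR adjusted p = 1.98e-06). Insr, the insulin receptor, had 27.2, 40.6 and 18.6 CPM in the same order and did not pass the test (edgeR adjusted p = 0.0562). Igf1r stood above Insr 7.01-fold in OG2 MEFs (5.84 to 8.45) and 4.11-fold in ICR MEFs (3.47 to 4.88) on the TPM scale. In the library labelled R1 ESC this ratio was 1.06 (0.502 to 2.14).

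The 6 Igfbp genes went different ways. Igfbp7 (ENSMUSG00000036256, chromosome 5, 77349240 to 77408041), a secreted member with low affinity for IGFs, had the largest fall of the set. It had 2029 counts in OG2 MEFs and 2273 in ICR MEFs, against 3 in the library labelled R1 ESC, or 360, 440 and 2.15 CPM. The library labelled R1 ESC was thus at the floor of 3 counts for the gene that led both MEF samples. The log2 difference was -6.98 (SD of MEFs 0.20, n = 2, edgeR adjusted p = 1.18e-06), and only 5 of the 17810 genes with a count had a lower one. How far it fell depends on the added 1, and it was -7.47 with 0.1 added and -5.82 with 5 added. Igfbp7 stood at -8.41 with TPM and at -7.83 after correction for GC content. Its level was 0.540% of the pooled MEF level (95% interval 0.111 to 1.58%). The lowest of the 12 fibroblast markers were Col3a1 at 1.91% (1.47 to 2.45%) and Pdgfra at 2.17% (0.705 to 5.08%), whose intervals overlap that of Igfbp7. Igfbp7 shares at most 85 bases of an exon with Polr2b on the opposite strand. Polr2b had 46 counts in the library labelled R1 ESC, and whether reads were counted by strand is not given in the sources used here. The counts of Igfbp7 were whole in all 3 libraries, unlike those of Igfbp4 and Igf2bp3 described below.

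Igfbp5 (ENSMUSG00000026185, chromosome 1, 72857932 to 72874884), a binding protein that also attaches to the extracellular matrix, had 3289 counts in OG2 MEFs and 1809 in ICR MEFs, against 32 in the library labelled R1 ESC. In CPM these were 584, 350 and 22.9, so the gap between the MEF samples was small beside their distance from the library labelled R1 ESC. Igfbp5 fell by 4.24 on the log2 scale (SD of MEFs 0.52, n = 2, edgeR adjusted p = 2.19e-05), to 4.86% of the pooled MEF level (3.32 to 6.87%).

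Igfbp4 (ENSMUSG00000017493, chromosome 11, 99041244 to 99054392), a binding protein that is cut by the protease PAPPA, was the only gene of the set that rose. It had 102 CPM in OG2 MEFs, 90.4 CPM in ICR MEFs and 275 CPM in the library labelled R1 ESC. The log2 difference was 1.51 (SD of MEFs 0.12, n = 2, edgeR adjusted p = 5.28e-05), but it was 0.70 after correction for GC content and -0.56 with TPM. Relative to the median of all genes that reached 10 counts in 1 library, it was 1.94 above that median with CPM and 0.98 above it with TPM. Its length as given by RSEM was 3103 bases in OG2 MEFs and 2360 in ICR MEFs, against 3831 in the library labelled R1 ESC, so the transcripts assigned to it were longest where its CPM was highest. The counts of Igfbp4 were not whole (572.24, 467.23 and 383.27), as RSEM gives where reads are divided among genes. Pappa itself fell from 123 and 140 CPM in OG2 and ICR MEFs to 1.43 CPM, or 2 counts, which is 1.09% of the pooled MEF level (0.132 to 3.95%, edgeR adjusted p = 2.17e-06).

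Igfbp2, Igfbp3 and Igfbp6 did not pass the test. Igfbp2 (ENSMUSG00000039323, chromosome 1, 72824503 to 72852474), the main binding protein of many fetal tissues, had 19.3, 37.9 and 19.4 CPM in OG2 MEFs, ICR MEFs and the library labelled R1 ESC. Igfbp3 (ENSMUSG00000020427, chromosome 11, 7206086 to 7213923), the main IGF carrier of adult blood, had 112, 241 and 131 CPM in the same order. For both genes, OG2 MEFs and the library labelled R1 ESC were alike on the CPM scale and ICR MEFs stood apart. With TPM they were not alike, at 34.3 in OG2 MEFs against 14.9 in the library labelled R1 ESC for Igfbp2. For Igfbp3 these were 101 and 40.6 TPM. Igfbp6 (ENSMUSG00000023046, chromosome 15, 102144362 to 102149511), which prefers IGF2 over IGF1, had 60.2, 37.5 and 55.2 CPM. ICR MEFs again stood apart on the CPM scale. The edgeR adjusted p was 0.308 for Igfbp2, 0.355 for Igfbp3 and 0.627 for Igfbp6. Against the pooled MEF level, the exact 95% interval was 44.5 to 102% for Igfbp2, 64.2 to 87.5% for Igfbp3 and 86.9 to 142% for Igfbp6, counting error only. The log2 difference of Igfbp6 was 0.21 with CPM and turned to -1.36 with TPM and to -0.88 after correction for GC content. That of Igfbp2 was -0.47 with CPM, -1.67 with TPM and -1.31 after correction for GC content. For Igfbp3 it was -0.33, -1.89 and -0.63 in the same order.

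The make-up of the Igfbp transcript pool was therefore unlike between the cell types. Of the summed TPM of the 6 genes, Igfbp7 took 58.9% in OG2 MEFs, 62.0% in ICR MEFs, but 1.02% in the library labelled R1 ESC. Igfbp4 took 5.35%, 5.55% and 34.5% in the same order, and Igfbp6 took 9.93%, 5.34% and 26.4%. The ratio of Igfbp7 to Igfbp4 within a library does not depend on the scaling between libraries. It was 11 in OG2 MEFs (95% interval 10 to 12.1), 11.2 in ICR MEFs (10.1 to 12.4), against 0.0296 in the library labelled R1 ESC (0.00607 to 0.0870). The sum itself was 1299 TPM in OG2 MEFs, 1599 TPM in ICR MEFs and 153 TPM in the library labelled R1 ESC.

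**Figure D3:**
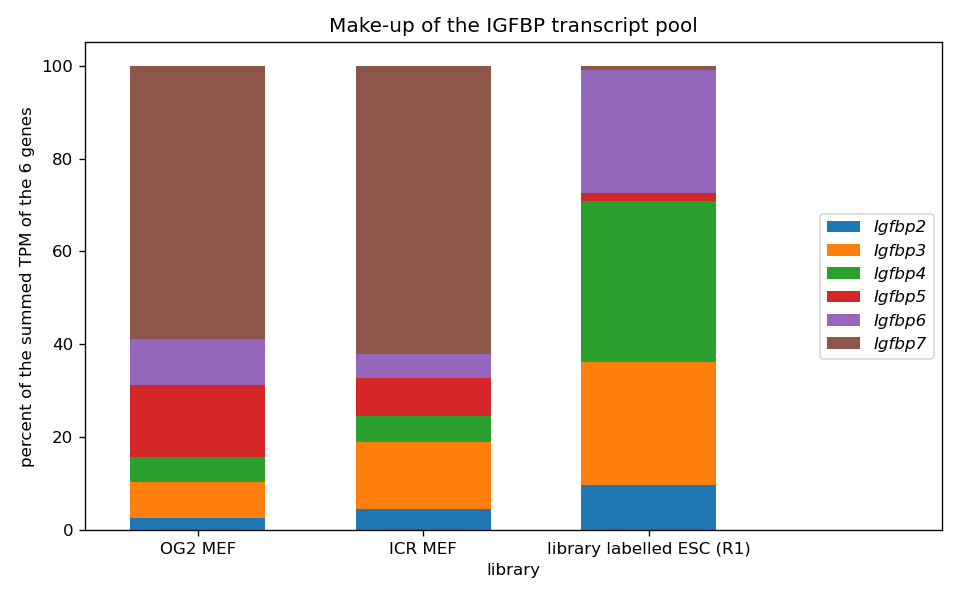
Share of each of the 6 Igfbp genes (colours) in their summed TPM (vertical axis, percent) in OG2 MEFs, ICR MEFs and the library labelled R1 ESC, 1 library each. Igfbp7 fills 58.9% and 62.0% of the bar in the MEF samples and 1.02% in the library labelled R1 ESC, where Igfbp4 takes 34.5%.

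The mRNA binder genes also parted. Igf2bp1 (ENSMUSG00000013415, chromosome 11, 95957163 to 96005940), also known as the zipcode-binding protein of the beta-actin mRNA, had 73.7, 66.2 and 74.6 CPM in OG2 MEFs, ICR MEFs and the library labelled R1 ESC. All 3 libraries were close to each other, and the log2 difference of 0.094 was within the SD of the MEF samples of 0.11 (n = 2, edgeR adjusted p = 0.665). With TPM it was -2.02. The length that RSEM gave Igf2bp1 was 4661 bases in OG2 MEFs and 4944 in ICR MEFs, against 7724 in the library labelled R1 ESC. A longer transcript lowers the TPM of the same count, but the part of length in the change from CPM to TPM was not tested. The median log2 difference over the 12726 genes described above was itself -1.54 with TPM and -0.43 with CPM. Igf2bp1 differed from that median by -0.48 with TPM and by 0.52 with CPM. Igf2bp3 (ENSMUSG00000029814, chromosome 6, 49085223 to 49214957), a paralog that is typical of fetal and tumour tissue, had 73.7, 69.8 and 20.1 CPM. It fell by 1.79 on the log2 scale (SD of MEFs 0.054, n = 2, edgeR adjusted p = 0.00012), to 28.0% of the pooled MEF level (18.5 to 40.7%).

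The counts of Igf2bp3 were not whole either, and its exons share up to 1529 bases with Malsu1 on the opposite strand. Malsu1 had 91, 97 and 36 counts in OG2 MEFs, ICR MEFs and the library labelled R1 ESC, so reads of both genes may not be told apart. The third paralog, Igf2bp2, rose from 117 and 121 CPM in OG2 and ICR MEFs to 176 CPM (log2 difference 0.56, edgeR adjusted p = 0.0128). With TPM its direction turned, and the log2 difference was -1.14. Within the family, Igf2bp2 held 50.9% of the summed TPM in OG2 MEFs, 54.3% in ICR MEFs, but 76.4% in the library labelled R1 ESC. Igf2bp3 held 25.5%, 25% and 7.64% in the same order. The ratio of Igf2bp2 to Igf2bp3 was 2.0 (1.76 to 2.26), 2.17 (1.90 to 2.48) and 9.99 (6.74 to 15.3), so the intervals of the MEF samples overlap each other and not that of the library labelled R1 ESC.

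OG2 and ICR MEFs were compared with each other by the ratio of CPM, with an exact interval for counting error, since each strain has 1 library. Of the 6 Igfbp genes, 5 differed between the MEF samples beyond counting error. Igfbp2, Igfbp3 and Igfbp7 were higher in ICR MEFs and Igfbp5 and Igfbp6 in OG2 MEFs. The share of all genes that differ by this measure was not computed. The interval narrows as counts rise, so the number is not a trait of the Igfbp genes. Igfbp3 was 2.16-fold higher in ICR MEFs (95% interval 1.96 to 2.38), with 630 and 1246 counts in OG2 and ICR MEFs. Igfbp2 was 1.96-fold higher in ICR MEFs (1.54 to 2.50), with 109 and 196 counts. Igfbp7 was 1.22-fold higher there (1.15 to 1.30). In contrast, Igfbp5 was 1.67-fold higher in OG2 MEFs (1.57 to 1.77) and Igfbp6 was 1.6-fold higher there (1.34 to 1.92).

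For the other 5 genes the interval of the ratio held 1. The ratio of OG2 to ICR MEFs was 1.38 for Igf1 (0.996 to 1.93), 1.14 for Igf1r (0.997 to 1.30) and 1.12 for Igfbp4 (0.993 to 1.27). For Igf2bp1 it was 1.11 (0.962 to 1.29) and for Igf2bp3 1.05 (0.914 to 1.22). As a result, the ratio of Igfbp3 to Igfbp5 on the TPM scale was 0.503 (0.461 to 0.548) in OG2 MEFs and 1.80 (1.67 to 1.94) in ICR MEFs. With a threshold of 1 log2 unit, Igfbp3 was the only gene of the set that differed, with a log2 difference of -1.10 of OG2 from ICR MEFs. At that threshold, 2.76% of the 17810 genes with a count differed, 1.81% being lower in OG2 MEFs. The share was 3.26% of the 12726 genes that reached 10 counts in a library and 0.934% of the 8243 genes that reached 150 counts over both MEF samples. Strain, embryo and culture cannot be told apart with 1 library each.

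**Figure D4:**
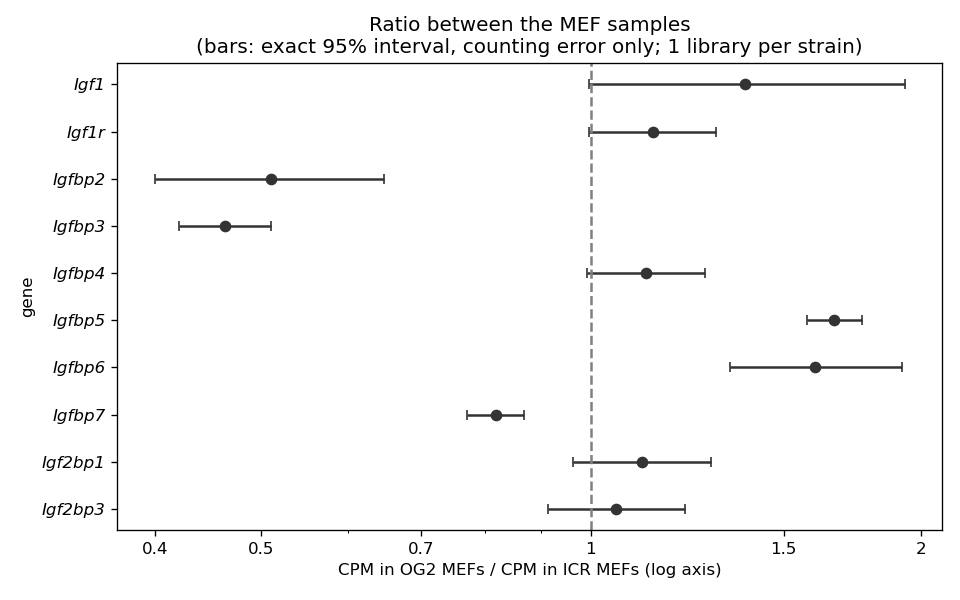
Ratio of CPM in OG2 MEFs to CPM in ICR MEFs (horizontal log axis) for each of the 10 genes (vertical axis), 1 library per strain, with bars for the exact 95% interval of the counts. Igfbp2 and Igfbp3 lie near 0.5, at 0.510 and 0.464, while Igfbp5 and Igfbp6 lie at 1.67 and 1.6.

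The other genes of the pathway were taken from a list of 55 genes, of which 54 were in the tables, 47 had a count and 45 were tested. By edgeR, 28 were called lower in the library labelled R1 ESC and 6 higher, while 11 were not called. Of all genes tested, 39.1% were lower and 29% higher. Their median log2 difference was -1.11, beside -0.41 for all genes tested. The ligands Ins1 and Ins2, the receptor Insrr and the binding proteins Igfbp1 and Igfbpl1 had 0 counts in each library, where 3 counts are 0.532 CPM in OG2 MEFs, 0.580 CPM in ICR MEFs and 2.15 CPM in the library labelled R1 ESC. The largest falls were those of Igf2 (log2 difference -8.78), of the imprinted H19 RNA, which IGF2BP proteins bind (-6.44), and of Pappa (-5.77). The largest rises were those of the beta-actin gene Actb (2.53), of the chromatin protein gene Hmga1 (1.48) and of Tsc2, a brake on mTOR (1.36). Of the 6 genes called higher only Actb was also higher with TPM, where the log2 difference was -0.25 for Hmga1 and -0.18 for Tsc2. All 28 genes called lower were lower with TPM too.

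By role, and beside the 39.1% of all tested genes that were lower and the 29% that were higher, 7 of 8 tested substrates and adaptors were lower, among them Irs1 (log2 difference -2.74) and the imprinted Grb10 (-3.14). Of 6 proteases and protease inhibitors, Pappa, Adam12 (-4.60) and Htra1 (-3.09) fell, while Pappa2, Stc1 and Stc2 did not pass the test. Of 20 genes from PI3K to mTOR, 13 fell and 3 rose. Rheb, the activator of mTOR, fell by 4.98, whereas Pik3r2 and Eif4ebp1 rose beside Tsc2 with CPM. With TPM the log2 difference was -0.64 for Pik3r2 and -0.66 for Eif4ebp1, and the GC-content correction gave -0.13 for Pik3r2. Of the 3 tested mRNA binders and regulators, Igf2bp2 and Hmga1 rose with CPM, though not with TPM, and Hmga2 fell. Of 5 target mRNAs of the IGF2BP proteins, H19 and Cd44 fell and Actb rose, and Myc and Btrc were not called. Pappa and Rheb had 2 counts each in the library labelled R1 ESC, so how far they fell depends on the added 1.

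**Figure D5:**
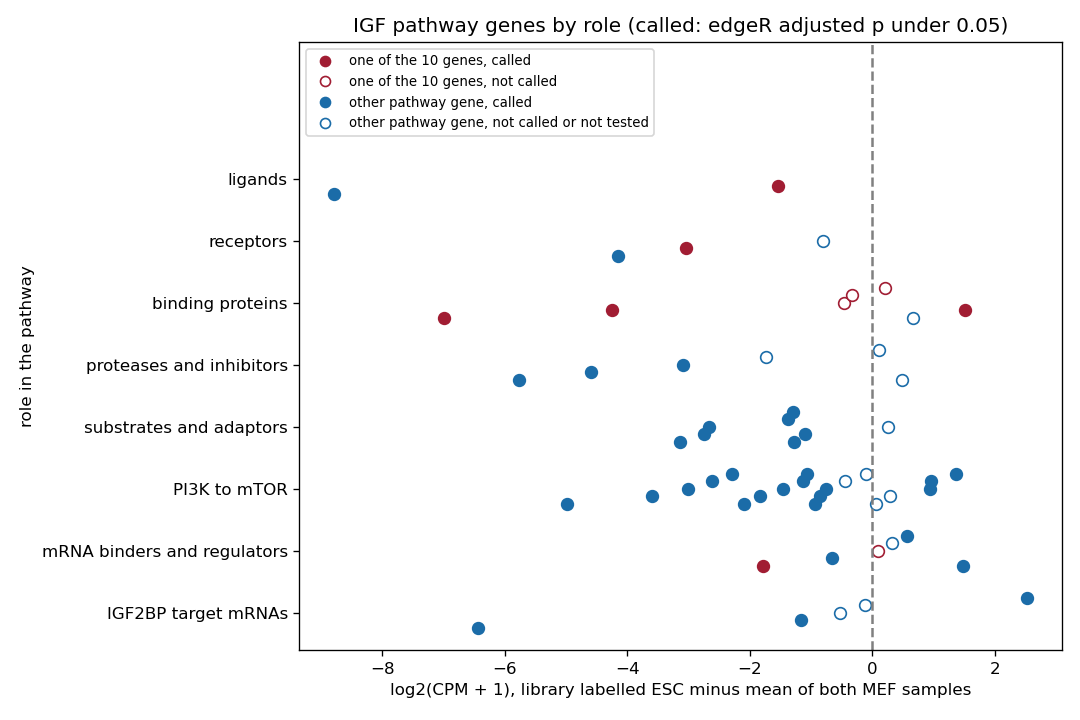
Difference in log2(CPM + 1) between the library labelled R1 ESC and the mean of both MEF samples (horizontal axis) for the IGF genes with a count, by role (vertical axis), with filled points for an edgeR adjusted p under 0.05. Red points are the 10 genes and blue points the other pathway genes, which run from -8.78 for Igf2 to 2.53 for Actb.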

How the data were processed

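RNA was extracted with Trizol and made into TruSeq libraries. The authors trimmed the reads, aligned them with bowtie2 to transcripts of the Ensembl annotation and summarised them with RSEM (versions not given in the sources used here). The labels name the build mm10. The deposited expected count is an estimated number of reads per gene, with shared reads split among genes by RSEM. The deposited TPM is scaled by length and to a fixed sum. The deposited FPKM was not used, since TPM orders genes in the same way. The authors name a GC-content normalization, and the values were taken as those before it.

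Symbols and positions were looked up by identifier in GENCODE M21 (GRCm38), with a match for 98.3%. Expected counts were rounded, scaled with TMM (factors of 1.09, 1.13 and 0.812 in the order OG2, ICR, R1) and given as CPM or log2(CPM + 1), which understates the change of low genes. The test was edgeR 4.0.16 (glmQLFTest, filterByExpr) under R 4.3.3, checked on simulated counts. Alternatives were TPM, full-quantile scaling (limma 3.58.1), size factors by median of ratios, pseudocounts of 0.1 and 5, a minimum of 10 counts, correction over 20 bins of GC content, no filter, DESeq2 1.42.0 and leaving out each MEF sample. Exact intervals at 95% (Poisson, or conditional binomial for ratios) were computed with scipy 1.17.1 and Python 3.11.15, and cover counting error only, since PCR reads are not independent molecules. A ratio to the pooled MEF level sums the counts of both MEF samples.

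The members and lists were chosen with earlier results of these data known. All 10 members were named. From the pathway list, Igf2, Igf2r, Insr, Igf2bp2 and the 3 largest changes in each direction among called genes were named by rule, and the others after their values were seen. Rps6kb1 of that list was not analysed here. The minimum of 150 counts was also chosen after the values were seen.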

Additional observations from a re-analysis of the deposited data

How the results depend on the processing

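The median log2 difference of the library labelled R1 ESC from MEFs, over the 12726 genes that reached 10 counts in a library, shifted by -1.11 with TPM, 0.19 with full-quantile scaling, 0.17 with size factors by median of ratios, 0.17 with the minimum of 10 counts and 0.13 with a pseudocount of 5. The 5 genes at least 1 log2 unit lower became 9 with TPM, and were 4 or 5 under the other settings. The 1 gene at least 1 log2 unit higher, Igfbp4, became 0 with TPM and 0 with the GC-content correction. The 1 gene apart between OG2 and ICR MEFs became 2 with TPM. At the same threshold, the numbers over all genes shifted too. Of the 17810 genes with a count, 4617 were lower, 3900 higher and 492 apart with CPM. With TPM these were 7691, 1625 and 1105. With the GC-content correction, 3606 of 17729 genes were higher. The 5 and 1 calls of edgeR were 4 and 1 with DESeq2, which lost Igf1, and the pathway calls stayed between 21 and 30 lower and 6 and 7 higher.

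Of 90 values of the 10 genes against MEFs under an alternative, 53 moved by less than the SD of the MEF samples, 30 by more and 7 changed sign. The 53 include 10 values without OG2 MEFs and 7 without ICR MEFs. These could not have moved by more, since leaving out 1 of 2 samples always shifts their mean by less than their SD. With TPM, the difference became -0.56 for Igfbp4, -1.36 for Igfbp6 and -2.02 for Igf2bp1. With the GC-content correction it became -0.88 for Igfbp6. With 1 MEF sample left out, it ran from -0.93 to 0.0010 for Igfbp2, from -0.88 to 0.22 for Igfbp3 and from -0.12 to 0.54 for Igfbp6, and each changed sign without ICR MEFs. Between the MEF samples, TPM turned Igfbp4 to -0.35 and Igf2bp3 to -0.025. For the called pathway genes, 4 scalings were added after seeing the data. All 28 called lower stayed lower, though with TPM the median of the genes that reached 10 counts itself shifted by -1.11. Of the 6 called higher, TPM turned Pik3r2 to -0.64, Tsc2 to -0.18, Eif4ebp1 to -0.66, Igf2bp2 to -1.14 and Hmga1 to -0.25, and the GC-content correction turned Pik3r2 to -0.13. For these changes the cause was not tested. The edgeR test on 1 MEF sample was left out, since no residual degree of freedom would remain. No paired analysis was possible because only 1 library stands for ESCs. The depth of the library labelled R1 ESC limits Igfbp7, Igf1 and Igf1r most, with 3, 6 and 13 counts.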

Other observations

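The genes most like the extreme members were sought by the Euclidean distance of log2(CPM + 1) over the 3 libraries. For Igfbp7, the largest fall, they were Adam9 (distance 0.82), Pcdhgc3 (0.85) and Fndc3b (1.15). For Igfbp4, the highest difference, they were Sh3bgrl3 (0.088), Samhd1 (0.088) and Ddx23 (0.11). With 3 libraries, such nearness holds for many genes of like level and is only a description.

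The other marker lists summed to less than the fibroblast one. In the order OG2 MEFs, ICR MEFs and the library labelled R1 ESC, the summed level was 11.5, 11.2 and 81.0 CPM for 4 endothelial markers and 66.6, 36.6 and 23.7 CPM for 5 macrophage markers. The endothelial sum was carried by Pecam1 (0, 0 and 64.5 CPM) and Tek (0.532, 0.774 and 16.5 CPM), while Kdr went the other way (10.8, 10.4 and 0 CPM) and Cdh5 was at 0 in the library labelled R1 ESC. The sum was 125, 131 and 23.7 CPM for 4 markers of extra-embryonic endoderm and 102, 131 and 30.1 CPM for 4 neural markers, of which Pax6 (0.355, 0 and 5.02 CPM) and Sox1 (0, 0 and 1.43 CPM) went against the sum. Their part in the IGF results was not tested.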
